A study of Mus musculus with 12 samples.

Results

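The response of mouse embryonic stem cells to knockdown of Ino80 was followed here between day 4 and day 6, as the change of the knockdown difference itself. For every gene, the difference between the Ino80 hairpin and a non-targeting hairpin at day 6 was set against the same difference at day 4. This double difference is called the interaction, and a positive interaction means that the knockdown difference lay higher at day 6. It uses 8 arrays of the 12 in the series, those of days 4 and 6, and was computed for all 19183 genes measured.

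The cells were J1, a mouse embryonic stem cell line. They carried a lentivirus with a short hairpin RNA against Ino80 (shIno80) or with a non-targeting hairpin (shNT), and RNA was taken at days 2, 4 and 6 (48, 96 and 144 hours). Each hairpin at each day had 2 arrays, which the design lists as biological replicates. The design speaks of infection and the sample descriptions of transfection, and how separate the cultures behind a pair of arrays were is unstated, so the p-values reflect only how these arrays scatter, which may be technical. Infected and uninfected cells were not told apart in the labels, and the labels do not mention feeder cells.

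INO80 is a chromatin remodelling complex that slides nucleosomes and exchanges histones, with Ino80 as its ATPase. In embryonic stem cells it binds near the promoters of pluripotency genes together with the master transcription factors of that state. Stem cells that lose the pluripotency network can take on programmes that are normally separate from it, including those of trophoblast, the outer layer that builds the placenta, of primitive endoderm and of mesoderm.

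The deposited records do not place all arrays under the same samples. Positions 2 and 3 of all 3 slides carry files attached to the opposite hairpin from the one that the deposited value table gives them, 6 arrays of 12. Groups were taken from the value table, where within-group correlations (r = 0.9916 to 0.9941) were above those of any other pair (0.9852 at most). This choice was made after these correlations and the Ino80 levels were seen, so the Ino80 levels are not independent evidence for it. With the attachments in its place, 0 genes were called for the interaction by limma, and 289 had an unadjusted p below 0.05. Each slide held the 4 arrays of 1 day, so an additive slide effect cancels in the interaction. Slide position goes with the hairpin in the same way on all 3 slides. In single-day differences position cannot be told apart from the hairpin, and in the interaction only a position effect equal on all slides cancels. The share of probes well above background ranged over the arrays between 61.89% and 69.18%. The 75th percentile used for scaling lay between intensities of 1161 and 1608, and was highest on the shIno80 arrays of day 6 (1608 and 1475). Levels are given as log2 of the intensity relative to the array's 75th percentile, so a level of 0 is the 75th percentile itself. All 7 embryonic stem cell markers were well above background on every array.

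Ino80 itself was reduced on both days, and the change of its knockdown was not called. Its level at day 6 was -0.20 and 0.02 on the shIno80 arrays, against 1.89 and 2.05 on the shNT arrays. At day 4 its level was -0.29 and 0.12 on the shIno80 arrays, against 2.27 and 2.16 on the shNT arrays. The shIno80 arrays lay below the shNT arrays on both days without overlap. Ino80 was 4.16-fold lower at day 6 and 4.904-fold lower at day 4, with an interaction of 0.24 ± 0.23 (log2, SE; limma adjusted p = 0.688). Over 21 alternatives the interaction of Ino80 lay between 0.0308 and 0.511, and its adjusted p between 0.143 and 1. The other probes of Ino80 gave interactions of 0.73 and 0.57, neither of which was called. None of the 14 measured INO80 complex subunits was called, with a median interaction of -0.03 against -0.05 over all genes.

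The knockdown response at day 6 was for the most part that of day 4. A gene was called at a limma adjusted p below 0.05, adjusted by Benjamini-Hochberg over all genes, and 9624 genes were called for the knockdown difference at day 6 (50.2%), against 8147 at day 4 (42.5%). Of 6764 genes called on both days, 6694 differed in the same direction, and 6368 of these were not called for the interaction. Across genes the day 6 differences correlated with the day 4 differences at r = 0.82, with a slope of 0.94, as a description across genes, which are not independent replicates. The interaction was called for 715 genes, 3.73% of those tested, of which 319 were higher (1.66%) and 396 lower (2.06%). By at least 2-fold, 242 were higher and 258 lower. An unadjusted p below 0.05 was reached by 3341 genes. The median size of a called interaction was 1.24 on the log2 scale, and the smallest was 0.53.

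The split of directions depended on how arrays were scaled. Of the 715 called genes, 44.6% were higher, against 55.6% with scaling to the median and 77.0% with the deposited value table. Leaving out 1 of the 8 arrays also moved the split, to between 32.7% and 58.7% higher. The median interaction over all genes was -0.05 on the main scale and 0.09 in the value table, so the value table moves this median by over 0.1 toward higher values. Single genes below are given relative to the main scale, and their size is large beside this shift unless stated.

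Day 6 calls without a day 4 call did not by themselves show a changed response. Of 2860 genes called at day 6 and not at day 4, 217 were called for the interaction. Among 1383 genes called at day 4 and not at day 6, 103 were called for it.

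**Figure D1:**
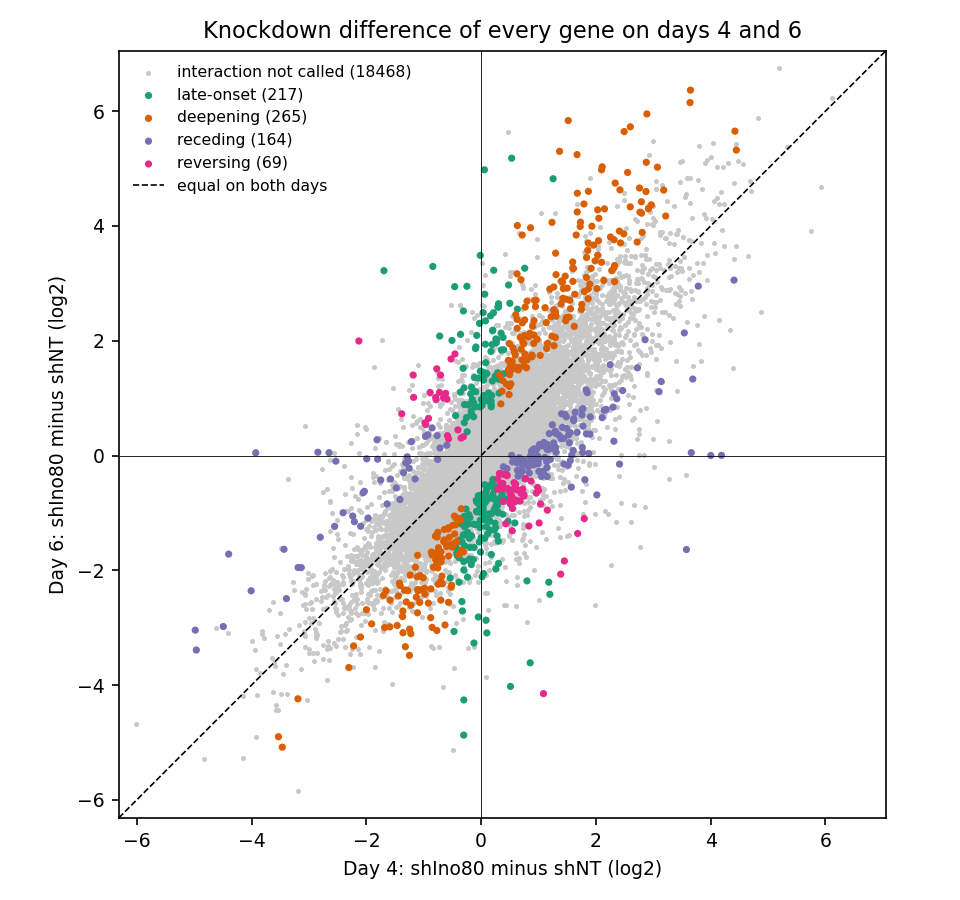
Each point is a gene, with its shIno80 minus shNT difference at day 6 on the vertical axis and at day 4 on the horizontal axis, both in log2. The 715 genes called for the interaction are coloured by class, with 217 late-onset, 265 deepening, 164 receding and 69 reversing genes, and the dashed line marks equal differences on both days.

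Each of the 715 genes fell in 1 of 4 classes, which are read from the same differences as the interaction and so give no separate support. Late-onset genes were called at day 6 and not at day 4, and numbered 217, with 89 rises and 128 falls. Deepening genes were called on both days in the same direction and differed more at day 6. There were 265 of them, 163 rises and 102 falls. Receding genes were called at day 4 and differed less at day 6, and numbered 164, with 120 that had risen at day 4 and 44 that had fallen. Reversing genes were called on both days in opposite directions, 46 of them lower at day 6 and higher at day 4, and 23 higher at day 6 and lower at day 4.

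Medians show how far each class moved. For days 2, 4 and 6 in turn, deepening rises had median knockdown differences of 0.17, 1.42 and 2.90 (log2). At day 2, 12.6% of all genes were called, 6.26% higher and 6.35% lower, and 37 of the 163 deepening rises were among those called higher and 24 of the 102 deepening falls among those called lower. Deepening falls had medians of -0.26, -0.79 and -2.11 on the same days. Late-onset rises had medians of -0.15, 0.06 and 1.45, and late-onset falls of 0.11, 0.05 and -1.15. Receding rises had medians of 0.42, 1.30 and 0.10, so that the median returned close to 0 at day 6. Receding falls had medians of -0.81, -1.98 and -0.42, and 28 of the 44 were already called lower at day 2, as 58 of the 120 receding rises were called higher.

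**Figure D2:**
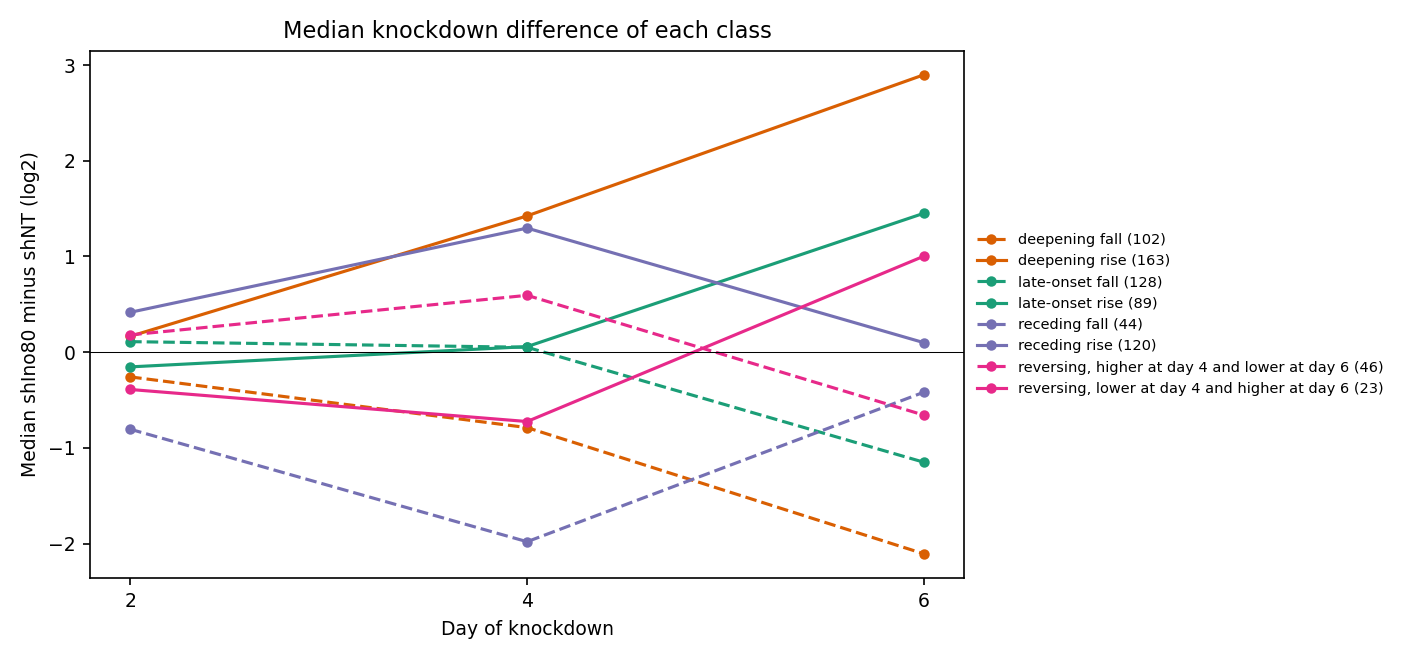
Median shIno80 minus shNT difference (log2) of each class at days 2, 4 and 6, with solid lines for rises and for reversals toward higher values, dashed lines for falls and for reversals toward lower values, and the number of genes in brackets. The deepening classes reach medians of 2.90 and -2.11 at day 6, while receding rises go to 0.10 at day 6 after 1.30 at day 4.

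Both hairpins took part in these changes. The shIno80 arrays moved more than the shNT arrays between days in 68.3% of the called genes, against 53% of all genes. For deepening rises this share was 85.3%, and the median day 6 minus day 4 change was 1.17 on shIno80 arrays and -0.07 on shNT arrays. For receding rises the share was 52.5%, with a median change of -0.61 on shIno80 arrays and 0.51 on shNT arrays. In such single-hairpin changes day and slide cannot be told apart. The arrays also cannot separate a change in the number of cells of a type from a change in RNA per cell.

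An earlier interaction, day 4 against day 2, was called for 2957 genes (15.4%; 8.36% higher and 7.06% lower), and 304 genes were called in both. The 2 interactions share the day 4 arrays.

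The deepening rises with the largest interactions, among genes with an informative name and well above background on all 8 arrays, were Ddn, Wnt6, Pmp22, Wnt10a, Nog and Esx1. Ddn was 57.1-fold higher on shIno80 arrays at day 6 and 2.86-fold higher at day 4. Wnt6 was 39.4-fold higher at day 6 and 2.58-fold higher at day 4, and Wnt10a 52.98-fold and 6.06-fold on the same days. Pmp22, Nog and Esx1 were 16.1-fold, 14.3-fold and 61.9-fold higher at day 6, against 1.55-fold, 1.64-fold and 7.41-fold higher at day 4.

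Esx1 encodes an X-linked homeobox factor of the placenta. Its level at day 6 was 2.48 and 2.52 on the shIno80 arrays, against -3.38 and -3.52 on the shNT arrays. At day 4 it was -0.56 and -0.66 on the shIno80 arrays, against -3.45 and -3.54 on the shNT arrays. The shIno80 arrays lay above the shNT arrays on both days, and the shNT levels were close on the 2 days. Its interaction was 3.06 ± 0.16 (log2, SE), or 8.36-fold (limma adjusted p = 0.000814). Esx1 was already higher at day 2, by 0.90 (log2; limma adjusted p = 0.00289), unlike the other 5 of these genes, whose day 2 differences lay between -0.48 and 0.15 and were not called.

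Wnt6 and Wnt10a are secreted ligands of the Wnt pathway. Wnt6 had levels at day 6 of 3.26 and 3.19 on the shIno80 arrays, against -1.95 and -2.21 on the shNT arrays. Its day 4 levels were 0.98 and 1.14 on the shIno80 arrays, against -0.54 and -0.07 on the shNT arrays. For Wnt6 the shNT arrays were lower at day 6 than at day 4 while the shIno80 arrays were higher, so both hairpins added to the interaction of 3.93 ± 0.39 (limma adjusted p = 0.00301). A second Wnt6 probe gave an interaction of 3.52. Wnt10a had an interaction of 3.13 ± 0.31 (limma adjusted p = 0.00294), with day 6 levels of 2.31 and 2.14 on the shIno80 arrays, against -3.41 and -3.59 on the shNT arrays.

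Nog encodes noggin, a secreted antagonist of BMP ligands. At day 6 the Nog levels were -0.96 and -0.61 on the shIno80 arrays, against -4.51 and -4.75 on the shNT arrays. At day 4 they were -3.94 and -3.77 on the shIno80 arrays, against -4.39 and -4.75 on the shNT arrays. The groups did not overlap on either day, and the gap was much wider at day 6, with an interaction of 3.13 ± 0.33 (limma adjusted p = 0.00376). Ddn, which encodes dendrin of neurons and kidney podocytes, had the largest interaction of these 6 at 4.32 ± 0.27 (limma adjusted p = 0.00100). Pmp22 encodes a membrane protein of peripheral myelin and had an interaction of 3.38 ± 0.28 (limma adjusted p = 0.00173). All 6 calls held without each of the 8 arrays in turn, with a limma adjusted p of 0.0215 at most.

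Among the deepening falls, the 6 largest by the same rule were Padi4, F2, Nos3, Igfals, Aard and Lrrc15, with interactions between -2.32 and -1.73 (log2). Padi4 encodes an enzyme that turns arginine into citrulline in histones and other proteins. Padi4 levels were -4.08 and -3.81 on the shIno80 arrays, against -1.11 and -0.87 on the shNT arrays at day 6, and its day 4 levels were -2.27 and -2.19 on the shIno80 arrays, against -1.71 and -1.49 on the shNT arrays. The shIno80 arrays were below the shNT arrays on both days, by 7.74-fold at day 6 and 1.55-fold at day 4 (interaction -2.32 ± 0.20, limma adjusted p = 0.00178). Its other probes gave interactions of -2.59, which was called over probes, and -0.91, which was not.

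F2, the precursor of thrombin, was 7.97-fold lower at day 6 and 1.81-fold lower at day 4. Nos3, endothelial nitric oxide synthase, was 5.89-fold lower at day 6 and 1.48-fold lower at day 4. Igfals, which encodes a carrier subunit of circulating insulin-like growth factors, was 5.73-fold lower at day 6 and 1.63-fold lower at day 4. Aard and Lrrc15 had interactions of -1.75 ± 0.19 and -1.73 ± 0.18 (limma adjusted p = 0.00431 and 0.00313). In Lrrc15 the shIno80 levels were -4.34 and -4.10 at day 6 and -4.43 and -4.29 at day 4, while the shNT arrays were higher at day 6, with -1.23 and -1.03, than at day 4, with -3.01 and -2.99. The call of Igfals was lost without shNT replicate 2 of day 4, shIno80 replicate 1 of day 6 or shIno80 replicate 2 of day 6 (limma adjusted p = 0.0699, 0.0607 and 0.0539), and those of the other 5 held without each array.

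Late-onset rises with the largest interactions were Krt15, Prr5l, Kdr, Fam13a, Kcnj8 and Masp1. Kdr encodes the VEGF receptor that marks mesoderm progenitors of blood and vessels. Kdr levels at day 6 were -2.28 and -2.36 on the shIno80 arrays, against -4.53 and -4.28 on the shNT arrays. At day 4 they were -4.61 and -4.41 on the shIno80 arrays, against -4.18 and -3.40 on the shNT arrays. The shIno80 arrays were above the shNT arrays at day 6 and below them at day 4, where the difference of -0.72 was not called (limma adjusted p = 0.0624). The interaction was 2.80 ± 0.38 (limma adjusted p = 0.00988). At day 2 the Kdr levels were -1.73 and -1.73 on the shIno80 arrays, against -1.60 and -0.98 on the shNT arrays, a difference of -0.44 that was not called (limma adjusted p = 0.360).

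Krt15, a keratin of basal epithelial cells, had day 6 levels of -1.05 and -1.003 on the shIno80 arrays, against -4.13 and -4.38 on the shNT arrays. Its day 4 levels were -2.50 and -2.16 on the shIno80 arrays, against -2.78 and -2.33 on the shNT arrays. The 2 groups overlapped at day 4 and were far apart at day 6, with shNT arrays lower than at day 4 and shIno80 arrays higher (interaction 3.01 ± 0.36, limma adjusted p = 0.00583). Prr5l encodes a protein bound to the mTORC2 kinase complex. Its day 6 levels were 2.50 and 2.40 on the shIno80 arrays, against 0.04 and -0.17 on the shNT arrays. At day 4 they were 0.17 and 0.12 on the shIno80 arrays, against 0.32 and 0.59 on the shNT arrays. Its interaction was 2.83 ± 0.18 (limma adjusted p = 0.00100), and its groups, apart by a small difference at day 4 that was not called, were apart the other way at day 6.

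Fam13a was 7.02-fold higher at day 6, with an interaction of 2.75 ± 0.22 (limma adjusted p = 0.00170), and a second probe gave 3.03. Kcnj8, the pore subunit of an ATP-sensitive potassium channel, had an interaction of 2.51 ± 0.48 (limma adjusted p = 0.0333). Its other probe gave 0.41 and was not called, and the call was lost without each of the 8 arrays in turn (limma adjusted p up to 0.122). Masp1, a protease of the lectin pathway of complement, had an interaction of 2.33 ± 0.38 (limma adjusted p = 0.0191), which was lost without any of 5 arrays (up to 0.0790). The calls of Kdr, Krt15, Prr5l and Fam13a held without each array.

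Late-onset falls with the largest interactions were Stra8, Eml6, Serpinf1, Selenbp1, Selenbp2 and Aldh3b1. Stra8, which germ cells need to enter meiosis, had day 6 levels of -2.63 and -2.77 on the shIno80 arrays, against 0.26 and 0.47 on the shNT arrays. At day 4 its levels were -0.33 and -0.29 on the shIno80 arrays, against 0.19 and 0.13 on the shNT arrays. The groups did not overlap on either day, but the day 4 difference of -0.47 was not called (limma adjusted p = 0.0643), while at day 6 Stra8 was 8.37-fold lower. Its interaction was -2.59 ± 0.25 (limma adjusted p = 0.00282).

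Serpinf1, a secreted factor that restrains vessel growth, was 3.68-fold lower at day 6 with an interaction of -2.18 ± 0.20 (limma adjusted p = 0.00240). Its second probe gave -2.51. Selenbp1 and Selenbp2 had nearly equal interactions of -2.13 and -2.10, but these are near-identical copies whose probes may read the same RNA, so they are uncertain as separate genes. In Selenbp1 the day 4 levels overlapped, -1.86 and -1.99 on the shIno80 arrays, against -1.93 and -1.96 on the shNT arrays, and the day 6 levels were -3.24 and -3.35 on the shIno80 arrays, against -1.20 and -1.16 on the shNT arrays. Aldh3b1, an aldehyde dehydrogenase, had an interaction of -1.90 ± 0.21 (limma adjusted p = 0.00463). Eml6 had an interaction of -2.23 ± 0.36 (limma adjusted p = 0.0191), but its other probe gave 1.60 in the opposite direction without a call, and the call was lost without any of 6 arrays (up to 0.0785). The shIno80 levels of Eml6 were -4.95 and -5.17 at day 6 and -4.91 and -4.66 at day 4, and its shNT levels -2.74 and -3.42 at day 6 and -4.98 and -5.10 at day 4, so most of its interaction lay on the shNT arrays.

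**Figure D3:**
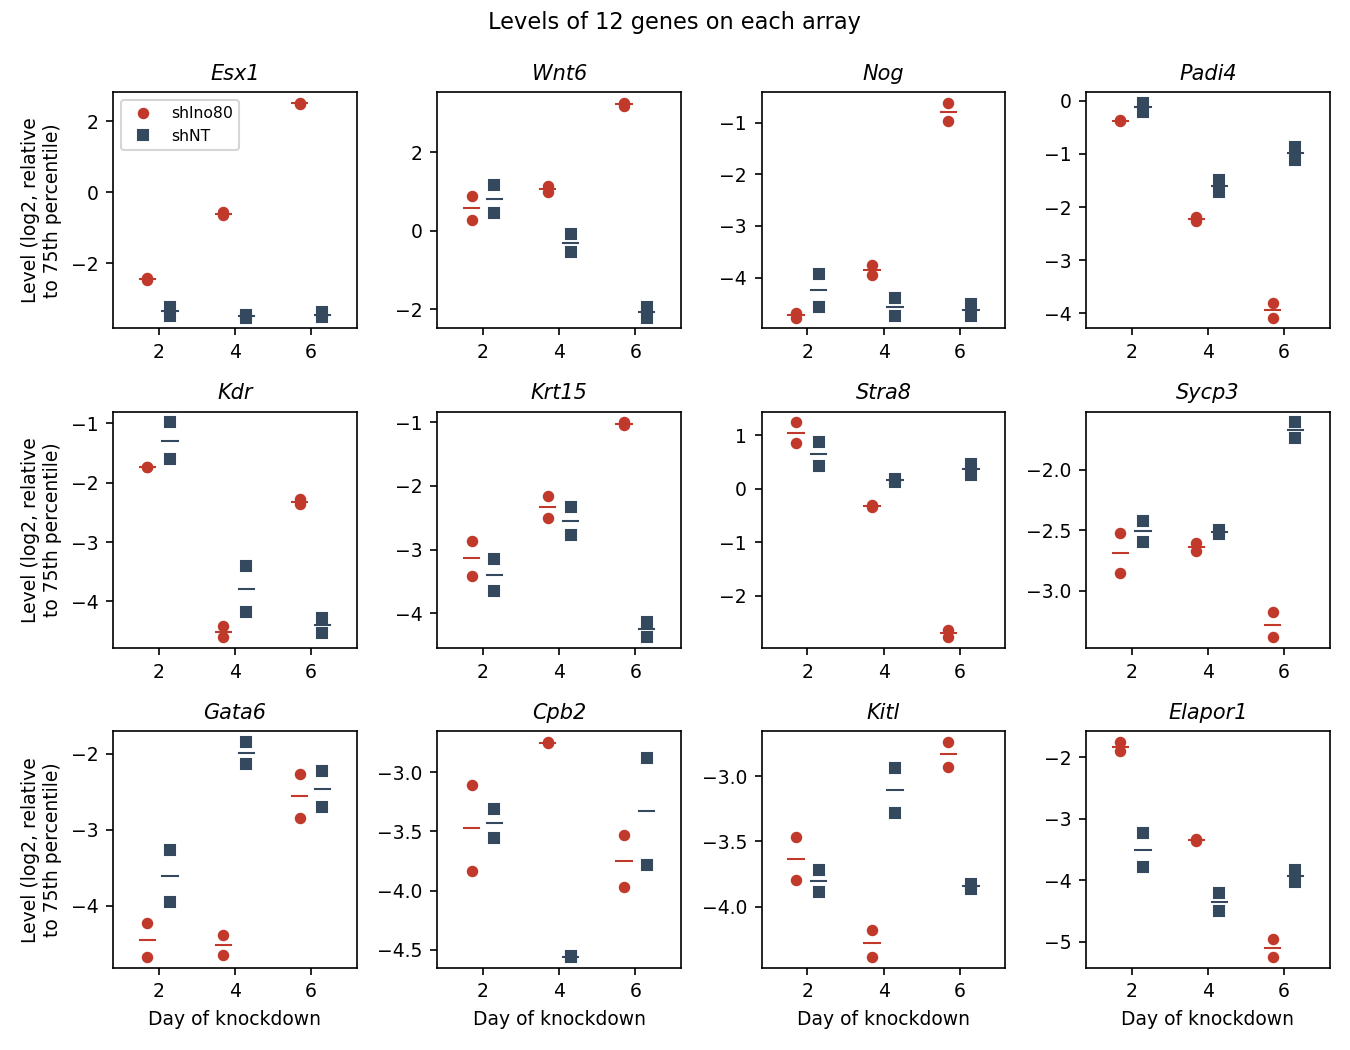
Level of 12 genes on each of the 12 arrays (log2 relative to the array's 75th percentile) at days 2, 4 and 6, with shIno80 as circles left of shNT as squares and a bar at each mean of 2 arrays. Esx1, Wnt6 and Nog show deepening rises, Padi4 a deepening fall, Kdr and Krt15 late-onset rises, Stra8 and Sycp3 late-onset falls, Gata6 a receding fall, Cpb2 a receding rise, and Kitl and Elapor1 reversals.

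Receding falls with the largest interactions were Gata6, Mybpc3, Prkca, Hopx, Ntn1 and Lrrc34. Gata6, a transcription factor that specifies primitive endoderm, had day 6 levels of -2.85 and -2.27 on the shIno80 arrays, against -2.70 and -2.23 on the shNT arrays. Its day 4 levels were -4.66 and -4.39 on the shIno80 arrays, against -2.13 and -1.85 on the shNT arrays. The groups overlapped at day 6 and were far apart at day 4, when Gata6 was 5.78-fold lower. The interaction was 2.43 ± 0.43 (limma adjusted p = 0.0240). A second Gata6 probe gave 0.79 and was not called, and the call was lost without any of 6 arrays (up to 0.0948).

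Mybpc3, a myosin-binding protein of heart muscle, was 3.51-fold lower at day 4 and not called at day 6, with an interaction of 2.09 ± 0.25 (limma adjusted p = 0.00632). Prkca, a protein kinase C, had day 6 levels of -4.10 and -3.93 on the shIno80 arrays, against -4.07 and -3.85 on the shNT arrays, and day 4 levels of -4.71 and -5.003 on the shIno80 arrays, against -2.76 and -2.96 on the shNT arrays. Here the shNT arrays were lower at day 6 than at day 4 and the shIno80 arrays higher, so that the groups overlapped at day 6 (interaction 1.94 ± 0.20, limma adjusted p = 0.00301). Hopx, a homeodomain protein without DNA contacts of its own, stayed lower on both days, by 3.103-fold at day 6 and 10.8-fold at day 4 (interaction 1.80 ± 0.21, limma adjusted p = 0.00510).

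Ntn1, the guidance factor netrin 1, was 5.12-fold lower at day 6 and 16.1-fold lower at day 4. A second Ntn1 probe gave an interaction of 0.52 and was not called, and the Ntn1 call was lost with the mean of its probes. Lrrc34 was 10.5-fold lower at day 6 and 31.2-fold lower at day 4. On the shIno80 arrays both were higher at day 6 than at day 4, where Ntn1 had -1.45 and -0.87 at day 6 and -3.20 and -3.47 at day 4, and Lrrc34 had -0.57 and -0.31 and -2.04 and -2.28 on the same days. Calls of Mybpc3, Prkca and Hopx held without each array. Those of Ntn1 and Lrrc34 were lost without at least 7 of the 8 arrays (limma adjusted p up to 0.144).

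Receding rises with the largest interactions were Cpb2, Tmeff2, Car4, Nkd2, Megf6 and S100a1. Cpb2, a carboxypeptidase that slows the breakdown of clots, had day 6 levels of -3.53 and -3.97 on the shIno80 arrays, against -2.88 and -3.78 on the shNT arrays, and day 4 levels of -2.75 and -2.75 on the shIno80 arrays, against -4.56 and -4.55 on the shNT arrays. The shIno80 arrays were above the shNT arrays at day 4 and overlapped with them at day 6. Its interaction was -2.23 ± 0.46 (limma adjusted p = 0.0389). S100a1, a calcium-binding protein, was higher on shNT arrays at day 6, with -2.83 and -2.87, than at day 4, with -4.79 and -5.20, and the shIno80 arrays had -2.96 and -2.92 at day 6 and -3.69 and -3.18 at day 4.

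Nkd2, an inhibitor of Wnt signalling that binds Dishevelled, had day 6 levels of -0.78 and -1.08 on the shIno80 arrays, against -0.83 and -1.11 on the shNT arrays. At day 4 they were 0.01 and -0.27 on the shIno80 arrays, against -1.92 and -2.09 on the shNT arrays. The groups overlapped at day 6 after a 3.67-fold difference at day 4 (interaction -1.84 ± 0.22, limma adjusted p = 0.00583), and a second probe gave -1.83. Megf6 was 2.86-fold higher at day 4, and its day 6 difference of -0.17 was not called (interaction -1.69 ± 0.16, limma adjusted p = 0.00282). Tmeff2 and Car4, a membrane protein and a carbonic anhydrase, remained higher at day 6 by 2.16-fold and 2.45-fold, against 8.57-fold and 8.79-fold at day 4. In Car4 the shIno80 levels were 0.11 and 0.36 at day 6 and 0.31 and 0.22 at day 4. Its shNT levels were higher at day 6, with -0.69 and -1.42, than at day 4, with -2.61 and -3.12. Calls of Nkd2 and Megf6 held without each array. The calls of Cpb2, Car4, Tmeff2 and S100a1 were lost without 5 to 7 of the 8 arrays (limma adjusted p up to 0.138).

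Among genes that reversed, the 4 largest toward higher values at day 6 were Nkain4, Emp1, Sema3b and Kitl. Kitl, the ligand of the Kit receptor, which supports germ cells and blood progenitors, had day 6 levels of -2.74 and -2.93 on the shIno80 arrays, against -3.86 and -3.83 on the shNT arrays, and day 4 levels of -4.18 and -4.39 on the shIno80 arrays, against -3.28 and -2.93 on the shNT arrays. Kitl was 2.02-fold higher at day 6 and 2.26-fold lower at day 4, with groups apart on both days (interaction 2.19 ± 0.23, limma adjusted p = 0.00390). Nkain4 was 2.64-fold higher at day 6 and 2.27-fold lower at day 4 (interaction 2.59 ± 0.18, limma adjusted p = 0.00140), and its second probe gave 1.96. Emp1, an epithelial membrane protein, was 2.85-fold higher at day 6 and 1.71-fold lower at day 4. Sema3b, a secreted semaphorin, was 3.41-fold higher at day 6 and 1.37-fold lower at day 4, after a day 2 difference of -1.51.

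In the other direction stood Elapor1, Scara5, Myo7a and Mzb1. Scara5, a receptor for ferritin, was 1.93-fold lower at day 6 and 2.23-fold higher at day 4. Myo7a, an unconventional myosin of inner ear hair cells, was 1.795-fold lower at day 6 and 2.05-fold higher at day 4. Mzb1 was 2.28-fold lower and 1.35-fold higher on the same days. Elapor1 had day 6 levels of -4.96 and -5.25 on the shIno80 arrays, against -4.03 and -3.83 on the shNT arrays, and day 4 levels of -3.36 and -3.32 on the shIno80 arrays, against -4.20 and -4.50 on the shNT arrays, with the shIno80 arrays below at day 6 and above at day 4 (interaction -2.19 ± 0.28, limma adjusted p = 0.00851). A second Elapor1 probe gave -0.15 and was not called. The call of Scara5 was lost without each of the 8 arrays in turn (limma adjusted p up to 0.0965) and that of Myo7a without shNT replicate 2 or shIno80 replicate 1 of day 4 (0.0515 and 0.0516), while the other 6 held.

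A further set of genes crossed the detection limit at day 6. Well above background on both shIno80 arrays at day 6 and on none of the other 6 arrays were 39 genes, 28 of them with an informative name. They were chosen by the detection that the interaction also reads, so no count of calls among them is given. The 6 brightest named ones were Olfr551, Lce1i, Capn6, Col4a5, Slc24a3 and Klk6. Capn6, a calpain without protease activity, had day 6 levels of -3.26 and -3.04 on the shIno80 arrays, against -7.67 and -7.85 on the shNT arrays, and was at least 6.78-fold higher there, as a bound against the lowest signal well above background (interaction 2.73 ± 0.43, limma adjusted p = 0.0175). Lce1i, of the cornified envelope of skin, was at least 5.42-fold higher at day 6 (limma adjusted p of the interaction = 0.0364). The calls of Capn6 and Lce1i were lost without at least 4 of the 8 arrays (up to 0.129). Olfr551, an olfactory receptor, had day 6 levels of -4.47 and -1.73 on the shIno80 arrays, against -8.07 and -8.09 on the shNT arrays, and its 2 shIno80 arrays were far apart while the shNT arrays were not well above background. Its call (limma adjusted p = 0.0364) was lost with levels set no lower than the background limit and without any of 6 arrays (up to 0.127).

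Col4a5, a chain of basement membrane collagen, Slc24a3, an ion exchanger, and Klk6, a secreted protease, were at least 4.68-fold to at least 5.78-fold higher at day 6, but their interactions were not called (limma adjusted p between 0.0604 and 0.237). For comparison, 88 genes were seen on both shIno80 arrays of day 4 and on none of the other 6 arrays.

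Conversely, 100 of the 19183 genes tested were well above background on both arrays of the 3 other groups and on neither shIno80 array at day 6. Of these 71 had an informative name, and no count of calls among the 100 is given for the same reason. Pdcl2, a phosducin-like protein, was at least 25.3-fold lower at day 6, with levels of -6.23 and -6.35 on the shIno80 arrays, against -1.16 and -1.26 on the shNT arrays, and 11.04-fold lower at day 4. Oas2, an interferon-induced sensor of double-stranded RNA, was at least 7.79-fold lower at day 6 and 2.76-fold lower at day 4. Timm8a2, a homologue of a mitochondrial import protein, was at least 4.56-fold lower at day 6 and 1.63-fold lower at day 4. Interactions of these 3 were called (limma adjusted p between 0.00741 and 0.0304). Those of Vwa3b, Ryr3 and Cabp4 were not, at -1.16, -0.70 and 0.32 (limma adjusted p between 0.186 and 0.541). These 3 genes were called lower on both days by their reported probes. The shIno80 levels of Cabp4 were -5.54 and -5.35 at day 6 and -5.47 and -5.20 at day 4, so crossing the limit need not be a large change. The other Ryr3 probes gave smaller differences, of 0.11, -0.92 and -0.70 at day 6 and 0.01, -1.40 and -0.64 at day 4. Another Vwa3b probe gave -0.82 at day 6 and -0.50 at day 4. The calls of Pdcl2 and Oas2 were lost without at least 6 of the 8 arrays (up to 0.111). In the value table and with normexp and capped local backgrounds (a background correction in which outlying local values were set to the array's median) all 3 calls were lost, and that of Pdcl2 also with quantile normalization and with levels set no lower than the background limit.

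Gene lists for known pathways and cell types were read beside the 1.66% of all genes called higher and the 2.06% called lower. Where members called on a single day are counted, 21.8% of all genes were called higher and 28.4% lower at day 6. At day 4 these shares were 21.1% and 21.3%. Medians near 0 turned sign with the scaling: in the value table those of the DNA replication (0.07), INO80 subunit (0.14), cholesterol (0.10), mitochondrial ribosomal protein (0.12), mitosis (0.14), oxidative phosphorylation (0.04) and placental lactogen (0.05) lists were positive. Medians moved with single arrays too, and the examples here are the lowest or highest values over the 8 fits without 1 array. Without shNT replicate 1 of day 6 the mesoderm median was 0.18, the neural -0.04, the interferon 0.28, the Hox 0.94, the cadherin, claudin and integrin 0.23 and the placental lactogen 0.28. Without shNT replicate 2 of day 6 the TGF-beta median was 0.01, the interferon -0.14, the imprinted 0.17, the cadherin, claudin and integrin 0.01 and the placental lactogen -0.30. Without shNT replicate 2 of day 4 the fibroblast median was 0.20 and that of the AP-1 list 0.10. The primed epiblast median was -0.06 without shIno80 replicate 1 of day 4, the TGF-beta median 0.46 without shIno80 replicate 2 of day 4, and the 2-cell-like median -0.45 without replicate 1 and -0.07 without replicate 2 of shIno80 at day 6. The trophoblast list stood highest by its median interaction, except by the file attachments and without shNT replicate 1 of day 6, where the Hox list had 0.94 and the trophoblast list 0.86. Of 19 measured members 5 were called higher and 0 lower, all 5 deepening rises, with a median interaction of 0.87 against -0.05 over all genes, and 16 members had a positive interaction. Among members well above background on all 8 arrays 4 were called higher, with a median of 0.79. With no filter on dim probes 1 was called higher, with a median of 0.70. Of the 19 members, 17 were called higher at day 6 and 16 at day 4. Dlx3, a homeobox factor of the placenta, was at least 11.4-fold higher at day 6 and at least 1.31-fold higher at day 4, with day 6 levels of -2.72 and -2.10 on the shIno80 arrays, against -7.05 and -7.72 on the shNT arrays, and only 1 of the 2 shIno80 arrays at day 4 was well above background for it (interaction 2.88 ± 0.54, limma adjusted p = 0.0304). Hand1, a factor needed for trophoblast giant cells, was 39.99-fold higher at day 6 and 21.8-fold higher at day 4, with an interaction of 0.87 ± 0.18 (limma adjusted p = 0.0396). Krt19, a simple epithelial keratin, had an interaction of 1.27 ± 0.25 (limma adjusted p = 0.0362).

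Cdx2, a founding factor of trophoblast, was 13.1-fold higher at day 6 and 4.69-fold higher at day 4, and its interaction of 1.49 ± 0.71 was not called (limma adjusted p = 0.334). The calls of Dlx3, Hand1 and Krt19 were each lost without 7 of the 8 arrays (up to 0.148). The summed level of 7 trophoblast markers, in multiples of the array's 75th percentile, was 350.3 and 323.8 on the shIno80 arrays at day 6, against 13.5 and 10.87 on the shNT arrays. At day 4 it was 107.2 and 114.9 on the shIno80 arrays, against 5.085 and 6.219 on the shNT arrays. Bright members weigh most in such sums. At day 6 the shIno80 levels were 2.48 and 2.52 for Esx1 and 2.44 and 2.35 for Hand1 (log2). These are a small part of the sum. Krt7, Gata3 and Krt18 had interactions of 1.60, 1.35 and 0.34, and Eomes of -0.68, none of them called. In the list of placental lactogens and trophoblast giant cell genes 1 of 10 measured members was called higher and 1 lower, with a median of -0.07.

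Pappa2, a placental protease that frees insulin-like growth factors, was well above background on the shIno80 arrays at day 4 only. Its day 6 levels were -8.05 and -7.86 on the shIno80 arrays, against -7.95 and -7.97 on the shNT arrays, none of them well above background. At day 4 they were -4.40 and -3.53 on the shIno80 arrays, against -8.20 and -8.10 on the shNT arrays. It was at least 4.37-fold higher at day 4, and its interaction of -4.18 ± 0.39 (limma adjusted p = 0.00240) became -2.08 with levels set no lower than the background limit. Cited2, a co-regulator needed in placental development, was 4.06-fold higher at day 6 and 1.97-fold higher at day 4 (interaction 1.05 ± 0.13, limma adjusted p = 0.00785). Its 3 other probes gave 1.15 to 1.23, none of them called, and its call was lost with the mean of its probes.

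Few pluripotency factors were called for the interaction. Of 23 measured naive pluripotency factors 1 was called higher and 2 lower, with a median interaction of -0.31, although 21 were called lower at day 6 and 19 at day 4. Klf4, a pluripotency factor downstream of LIF, was a receding fall. Its day 6 levels were 3.17 and 3.36 on the shIno80 arrays, against 5.10 and 5.34 on the shNT arrays, and its day 4 levels were 2.35 and 2.08 on the shIno80 arrays, against 5.16 and 5.53 on the shNT arrays. The shIno80 arrays were below the shNT arrays on both days, by 3.87-fold at day 6 and 8.77-fold at day 4 (interaction 1.18 ± 0.23, limma adjusted p = 0.0343).

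Dppa2 and Dppa4 act together on chromatin in early embryonic cells. Dppa2 had day 6 levels of 1.18 and 1.38 on the shIno80 arrays, against 1.94 and 2.10 on the shNT arrays, and day 4 levels of 2.11 and 2.11 on the shIno80 arrays, against 2.17 and 2.05 on the shNT arrays. Its groups overlapped at day 4 and were apart at day 6 (interaction -0.74 ± 0.16, limma adjusted p = 0.0486). Dppa4 was slightly higher at day 4 without a call and lower at day 6, with an interaction of -0.67 ± 0.14 (limma adjusted p = 0.0432). The calls of both Dppa genes were lost without each of the 8 arrays in turn (up to 0.170), with median scaling, with quantile normalization and in the value table, and that of Klf4 without any of 6 arrays (up to 0.120) and with median scaling.

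Other pluripotency factors had no call. Nanog was 6.44-fold lower at day 6 and 13.02-fold lower at day 4, with an interaction of 1.01 ± 0.43 (limma adjusted p = 0.267). Pou5f1 had an interaction of -0.70 ± 0.24 and Sox2 of -0.52 ± 0.16 (limma adjusted p = 0.180 and 0.122), and they were 3.54-fold and 3.31-fold lower at day 6, against 2.19-fold and 2.31-fold lower at day 4. Esrrb and Zfp42 had interactions of 0.37 and 0.19 (limma adjusted p = 0.638 and 0.713). The summed level of 7 embryonic stem cell markers was 257.1 and 264.7 on the shIno80 arrays at day 6, against 626 and 689.8 on the shNT arrays, and 389.9 and 350.7 on the shIno80 arrays at day 4, against 645.4 and 652.2 on the shNT arrays. Dppa5a of these markers had differences of -0.99 at day 6 and -0.34 at day 4 (interaction -0.64, limma adjusted p = 0.0604). The shIno80 levels of Zfp42 were 5.13 and 5.39 at day 6 and 5.16 and 5.08 at day 4. Klf4, Nanog, Esrrb and Zfp42 had positive interactions and Pou5f1, Sox2 and Dppa5a negative ones, so the lower sum is not a further fall of all 7.

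Primed epiblast genes, those of the stage after the naive state, had 0 of 9 members called for the interaction, with a median of -0.25. At day 4, 2 of the 9 were called higher and 4 lower, beside 21.1% and 21.3% of all genes. Fgf5 of this list had an interaction of -1.67 ± 0.40 (limma adjusted p = 0.0624).

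Among lineage lists, endoderm, mesoderm and Hox genes had calls toward higher values alone. In the endoderm list 3 of 17 members were higher and 0 lower, with a median of 0.65. That median was 0.402 in the value table and 0.275 with normexp and capped local backgrounds. The median knockdown difference of the list was 0.37 at day 6 and 0.58 at day 4, with 8 and 9 members called higher. The median difference of the list thus did not rise, while 11 of the 17 members had a positive interaction. Cited1, a transcriptional co-regulator, had day 6 levels of 2.87 and 3.02 on the shIno80 arrays, against -1.54 and -1.82 on the shNT arrays. At day 4 they were 0.41 and 0.60 on the shIno80 arrays, against -1.89 and -1.93 on the shNT arrays. The shIno80 arrays were above the shNT arrays on both days, by 24.7-fold at day 6 and 5.35-fold at day 4 (interaction 2.21 ± 0.18, limma adjusted p = 0.00170). Dab2, an endocytic adaptor of endoderm, had an interaction of 0.79 ± 0.16 (limma adjusted p = 0.0348), which was lost without each of the 8 arrays in turn (up to 0.129) and with median scaling. Gata6, the third, is described above. The summed level of 6 primitive endoderm markers was 1.41 and 1.512 on the shIno80 arrays at day 6, against 0.6444 and 0.7663 on the shNT arrays, and 0.7491 and 0.8325 on the shIno80 arrays at day 4, against 0.6735 and 0.7972 on the shNT arrays. Of these markers only Dab2 was higher on the shIno80 arrays at day 6, by 1.95 (log2). Gata4, Gata6, Sox17, Sox7 and Pdgfra had day 6 differences of -0.09, -0.10, -0.03, -0.36 and -0.50. The higher sum at day 6 is therefore not a rise of the markers as a set.

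Of 15 primitive streak and mesoderm genes 3 were higher and 0 lower, with a median of 0.52. Besides Kdr these were Wnt3, which starts the primitive streak, and Msx2, a homeobox target of BMP signalling. Wnt3 was 9.58-fold higher at day 6 and 3.77-fold higher at day 4 (interaction 1.34 ± 0.26, limma adjusted p = 0.0358), and Msx2 was 5.54-fold higher at day 6 and 2.43-fold higher at day 4 (interaction 1.19 ± 0.14, limma adjusted p = 0.00606). The call of Wnt3 was lost without 7 of the 8 arrays (up to 0.130). T, the streak factor brachyury, had an interaction of 1.05 ± 0.35 (limma adjusted p = 0.158).

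Hox genes, which pattern the body axis, had 4 of 18 members called higher and 0 lower, with a median of 0.58. Only the shIno80 arrays of day 6 had Hoxd9 well above background, where its levels were -3.92 and -3.94 on the shIno80 arrays, against -7.64 and -7.62 on the shNT arrays, at least 3.96-fold higher (interaction 1.83 ± 0.15, limma adjusted p = 0.00173, and 1.82 with levels set no lower than the background limit). Hoxd10 was at least 1.84-fold higher at day 6 and Hoxb9 3.07-fold higher, and neither was called at day 4. Their interactions were 2.17 ± 0.47 and 1.54 ± 0.26 (limma adjusted p = 0.0465 and 0.0208). A second Hoxb9 probe gave an interaction of 0.64 and was not called. The shNT levels of Hoxb9 were lower at day 6, -4.85 and -4.44, than at day 4, -3.57 and -3.54. Both calls were lost without at least 6 of the 8 arrays (up to 0.152), and that of Hoxd10 also with levels set no lower than the background limit, where its interaction was 0.96. The call of Hoxd9 was lost with normexp and capped local backgrounds. Among the Hox genes well above background on all 8 arrays the median was 0.06, with 1 called higher.

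The neural list had 1 of 11 members higher and 1 lower, with a median of 0.08. Dlx2, a homeobox factor of the forebrain, was at least 20.9-fold higher at day 6 (interaction 3.57 ± 0.78, limma adjusted p = 0.0486), a call lost without each of the 8 arrays in turn. The day 6 minus day 4 change of Dlx2 was 1.74 on shIno80 arrays and -1.83 on shNT arrays. The shNT arrays were well above background for it at day 4 and not at day 6. Nes, the neural progenitor filament nestin, had shIno80 levels of 2.48 and 2.39 at day 6 and 2.50 and 2.51 at day 4, while its shNT levels were 1.22 and 0.59 at day 6 and -0.30 and -0.14 at day 4 (interaction -1.20 ± 0.26, limma adjusted p = 0.0451), a call lost without any of 6 arrays (up to 0.143).

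In the contractile and actin list 3 of 20 members were higher and 0 lower, with a median of 0.55, and 19 members were called higher at day 6 and 16 at day 4. Cryab, a small heat shock protein that protects muscle filaments, had day 6 levels of 4.68 and 4.71 on the shIno80 arrays, against -1.69 and -1.65 on the shNT arrays. At day 4 its levels were 1.52 and 1.42 on the shIno80 arrays, against -2.36 and -1.99 on the shNT arrays. It was 82.5-fold higher at day 6 and 12.5-fold higher at day 4, with no overlap of groups on either day (interaction 2.72 ± 0.23, limma adjusted p = 0.00178), and a second probe gave 2.11. Actc1, cardiac actin, was 5.18-fold higher at day 6 and 1.54-fold higher at day 4 (interaction 1.75 ± 0.20, limma adjusted p = 0.00503). Tpm2, a tropomyosin, had the smallest interaction of these, 0.84 ± 0.18 (limma adjusted p = 0.0490), lost without each of the 8 arrays in turn (up to 0.169).

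Of 16 fibroblast and mesenchyme markers 2 were called higher and 0 lower, with a median of 0.44. These were the chains of type I collagen. Col1a1 had day 6 levels of 0.75 and 0.59 on the shIno80 arrays, against -3.09 and -3.39 on the shNT arrays, and was 15.03-fold higher at day 6 and 5.31-fold higher at day 4 (interaction 1.50 ± 0.18, limma adjusted p = 0.00684). Col1a2 was 3.86-fold higher at day 6 and 1.41-fold higher at day 4 (interaction 1.46 ± 0.19, limma adjusted p = 0.00875). The summed level of 8 fibroblast markers was 6.153 and 5.452 on the shIno80 arrays at day 6, against 1.56 and 1.339 on the shNT arrays, and 4.541 and 4.969 on the shIno80 arrays at day 4, against 1.503 and 1.593 on the shNT arrays. All 8 were well above background on the shIno80 arrays of both days. Thy1 was called lower on both days, with differences of -0.65 at day 6 and -1.24 at day 4. Lum and Twist1 had interactions of -1.17 and -0.26, and Col3a1, Dcn, S100a4 and Thy1 of 0.57, 0.43, 0.14 and 0.58, none of them called. The higher sums are therefore not a rise of all 8. The part of these markers in the other results was not tested. The summed level of 4 blood and macrophage markers lay between 0.818 and 1.296 over the 8 arrays. Its member Ptprc, the CD45 antigen of blood cells and named here after its values were seen, was well above background on the shIno80 arrays of day 4 alone (interaction -2.06, limma adjusted p = 0.0142, and -0.75 with levels set no lower than the background limit).

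Among 15 targets of YAP and TEAD, the effectors of the Hippo pathway, 1 was higher and 0 lower, with a median of 0.48. It was Axl, a receptor tyrosine kinase, with an interaction of 1.77 ± 0.34 (limma adjusted p = 0.0312), lost without 7 of the 8 arrays (up to 0.106). The TGF-beta list had 3 of 17 higher and 0 lower, with a median of 0.23. Among them were Ltbp2 and Inhbb. Ltbp2, a matrix protein related to carriers of latent TGF-beta, had an interaction of 1.71 ± 0.31 (limma adjusted p = 0.0271), lost without 7 arrays (up to 0.106). Inhbb, a subunit of activin B, was a receding fall, 7.89-fold lower at day 6 and 22.5-fold lower at day 4 (limma adjusted p of the interaction = 0.0466). Its other probe gave -0.63 in the opposite direction without a call, and its call was lost without each of the 8 arrays in turn (up to 0.160).

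Of 21 cadherins, claudins and integrins 2 were higher and 0 lower, with a median of 0.10. Itgb4 and Itgb6, both integrin beta chains of epithelia, had interactions of 1.16 ± 0.24 and 1.27 ± 0.25 (limma adjusted p = 0.0429 and 0.0339). Both calls were lost without each of the 8 arrays in turn (up to 0.148), and the other Itgb4 probes gave 1.16, called over probes, and -0.91, not called. The day 6 minus day 4 change of Itgb4 was 0.10 on shIno80 arrays and -1.06 on shNT arrays. Itgb6 was well above background on the shIno80 arrays at day 6 alone, where it was at least 1.33-fold higher, and with levels set no lower than the background limit its interaction was 0.35 and its call was lost. In the list of AP-1 and immediate early genes 0 of 14 were called, with a median of 0.36.

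Among 23 DNA replication genes 0 were called for the interaction, with a median of -0.10, while 20 were called lower at day 6 and 20 at day 4. Among 22 mitosis and spindle genes 0 were called, with a median of -0.02. Of 14 CDK inhibitors and G1 cyclins 1 was higher and 0 lower, with a median of 0.22. This was Ccnd2, cyclin D2, with day 6 levels of 1.29 and 1.25 on the shIno80 arrays, against 0.83 and 1.01 on the shNT arrays, and day 4 levels of 0.48 and 0.34 on the shIno80 arrays, against 1.02 and 1.33 on the shNT arrays. It was lower on the shIno80 arrays at day 4 and not called at day 6 (interaction 1.11 ± 0.24, limma adjusted p = 0.0485). Its other probes gave 1.37 and 0.98, both called over probes, while its own call was lost without each of the 8 arrays in turn (up to 0.163) and with median scaling.

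In the p53 target list 1 of 19 was higher and 1 lower, with a median of 0.26. Fas, a death receptor, was 3.37-fold higher at day 6 and 1.51-fold higher at day 4 (interaction 1.16 ± 0.15, limma adjusted p = 0.00905). Its day 6 minus day 4 change was 0.33 on shIno80 arrays and -0.83 on shNT arrays. Gdf15, a stress-induced cytokine, was 4.71-fold lower at day 6 and 1.596-fold lower at day 4 (interaction -1.56 ± 0.21, limma adjusted p = 0.00880). Both calls held without each array.

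None of 32 cytosolic ribosomal protein genes had a positive interaction, with a median of -0.26, and 1 was called lower. In the value table, whose median over all genes was higher, that list's median was -0.11, and with quantile normalization it was -0.06. The called member was Rpl39l, a relative of Rpl39 expressed in germ cells and stem cells, which was 29.8-fold lower at day 6 and 11.6-fold lower at day 4 (interaction -1.37 ± 0.21, limma adjusted p = 0.0168). Its call was lost without shNT replicate 1, shNT replicate 2 or shIno80 replicate 1 of day 4 (limma adjusted p = 0.0598, 0.0653 and 0.0717). Of 29 mitochondrial ribosomal protein genes 0 were called, with a median of -0.03, and of 36 oxidative phosphorylation genes 0, with a median of -0.11.

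Glycolysis and hypoxia genes had 0 of 25 called, with a median of -0.24. In the cholesterol list 1 of 22 was lower and 0 higher, with a median of -0.07. Among 24 genes of the integrated stress and unfolded protein responses 2 were lower and 0 higher, with a median of -0.23. Asns, asparagine synthetase, was 1.59-fold higher at day 4 and not called at day 6, with levels of 5.95 and 5.87 on the shIno80 arrays, against 5.91 and 5.99 on the shNT arrays that overlapped. Mthfd2, a mitochondrial folate enzyme, was 1.73-fold lower at day 6 and not called at day 4. Both calls (limma adjusted p = 0.0492 and 0.0377) were lost without each of the 8 arrays in turn (up to 0.164) and with median scaling.

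Interferon-induced genes moved in both directions. Of 23 measured 5 were called higher and 1 lower, with a median of 0.07, and the 6 comprised 3 receding falls, 1 deepening rise, 1 deepening fall and 1 reversal. Ifit2, which binds viral RNA, had day 6 levels of -3.69 and -3.60 on the shIno80 arrays, against -4.60 and -4.70 on the shNT arrays, and day 4 levels of -4.83 and -4.79 on the shIno80 arrays, against -4.23 and -4.08 on the shNT arrays. It was 2.005-fold higher at day 6 and 1.57-fold lower at day 4 (interaction 1.66 ± 0.16, limma adjusted p = 0.00282). Usp18, which removes ISG15 from proteins, was at least 4.57-fold higher at day 6 and at least 1.55-fold higher at day 4 (limma adjusted p of the interaction = 0.0492). Tgtp1, an interferon-induced GTPase with a near-identical copy in the genome, was 3.29-fold lower at day 6 and at least 6.12-fold lower at day 4 (interaction 2.68 ± 0.49, limma adjusted p = 0.0272). With levels set no lower than the background limit the Tgtp1 interaction was 1.27 and its call was lost, and another Tgtp1 probe gave 0.01. The calls of Usp18 and Tgtp1 were lost without 7 of the 8 arrays (up to 0.142), while that of Ifit2 held without each array.

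Imprinted growth genes had 1 of 16 higher and 0 lower, with a median of 0.35. Peg3, a paternally expressed zinc finger gene, had day 6 levels of 0.51 and 0.55 on the shIno80 arrays, against -1.40 and -1.27 on the shNT arrays, and day 4 levels of -0.96 and -0.999 on the shIno80 arrays, against -0.58 and -1.19 on the shNT arrays. The groups overlapped at day 4 and were apart at day 6 (interaction 1.96 ± 0.29, limma adjusted p = 0.0136), a second probe gave 1.59, and the call was lost without shIno80 replicate 1 of day 4 or shIno80 replicate 2 of day 6 (0.0529 and 0.0518). Of 9 measured genes of the 2-cell-like state 0 were called, with a median of -0.20, and 6 were called higher at day 6 and 7 at day 4.

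Germ cell and meiosis genes had calls toward lower values alone, 5 of 19, with a median of -0.28 and 6 positive interactions. The 5 comprised 2 late-onset falls, 2 deepening falls and 1 receding rise. At day 6 the list was not lower as a whole, with 6 members called higher, 7 lower and a median difference of 0.13. Besides Stra8 the called members included Sycp3, a protein of the synaptonemal complex that joins homologous chromosomes. Its day 6 levels were -3.17 and -3.38 on the shIno80 arrays, against -1.61 and -1.74 on the shNT arrays, and its day 4 levels were -2.61 and -2.67 on the shIno80 arrays, against -2.54 and -2.50 on the shNT arrays. At day 4 the groups were apart by a small difference that was not called, and at day 6 the shNT arrays were higher and the shIno80 arrays lower than at day 4 (interaction -1.48 ± 0.19, limma adjusted p = 0.00875). Hormad1, which marks unpaired meiotic chromosomes, was 5.06-fold lower at day 6 and 2.06-fold lower at day 4 (interaction -1.30 ± 0.25, limma adjusted p = 0.0313). The call of Hormad1 was lost without 7 of the 8 arrays (up to 0.114), in the value table and with normexp and capped local backgrounds, and another probe of it gave -0.94 without a call.

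Promoters of germ cell genes are known for an E-box, CACGTG, at which repressors of these genes bind in stem cells. It was looked for on both strands, where it reads the same, in the 250 bases before each RefSeq start (GRCm38.p6), and 6.02% of all 32851 such windows hold it. Of 15 list members with a window 8 had the motif, and of the 4 called members with a window 2 had it. A member was counted if any of its windows held the motif, so these counts are not on the per-window scale of the 6.02%. Hormad1 has 2 windows, both with the motif, of which that at chr3:95559427-95559676 is shown. The windows of Stra8, Sycp3 and Hormad1, the members with the largest interactions, are shown 5′ to 3′ with the E-box in capitals. They lie at chr6:34920698-34920947 on the plus strand (Stra8), chr10:88459337-88459586 on the plus strand (Sycp3) and chr3:95559427-95559676 on the plus strand (Hormad1).
Stra8: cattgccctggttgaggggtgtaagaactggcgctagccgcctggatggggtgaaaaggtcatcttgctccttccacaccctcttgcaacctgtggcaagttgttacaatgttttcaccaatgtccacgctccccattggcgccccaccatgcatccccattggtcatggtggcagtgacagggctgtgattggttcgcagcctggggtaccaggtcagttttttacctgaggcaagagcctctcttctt
Sycp3: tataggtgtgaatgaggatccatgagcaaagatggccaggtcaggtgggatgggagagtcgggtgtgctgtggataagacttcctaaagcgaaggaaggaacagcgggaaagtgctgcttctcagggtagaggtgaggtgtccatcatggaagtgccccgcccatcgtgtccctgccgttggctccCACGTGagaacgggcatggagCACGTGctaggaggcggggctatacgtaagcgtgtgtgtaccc
Hormad1: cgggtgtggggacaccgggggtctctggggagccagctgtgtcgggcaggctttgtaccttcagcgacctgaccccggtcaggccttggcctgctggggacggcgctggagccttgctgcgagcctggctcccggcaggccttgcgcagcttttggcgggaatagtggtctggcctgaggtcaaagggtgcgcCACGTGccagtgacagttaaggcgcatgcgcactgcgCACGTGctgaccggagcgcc
Stra8 has no such letters in this window, and Sycp3 and Hormad1 have a pair each. A match is a description of the sequence and not a measured binding site, and no binding was measured on these arrays.

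**Figure D4:**
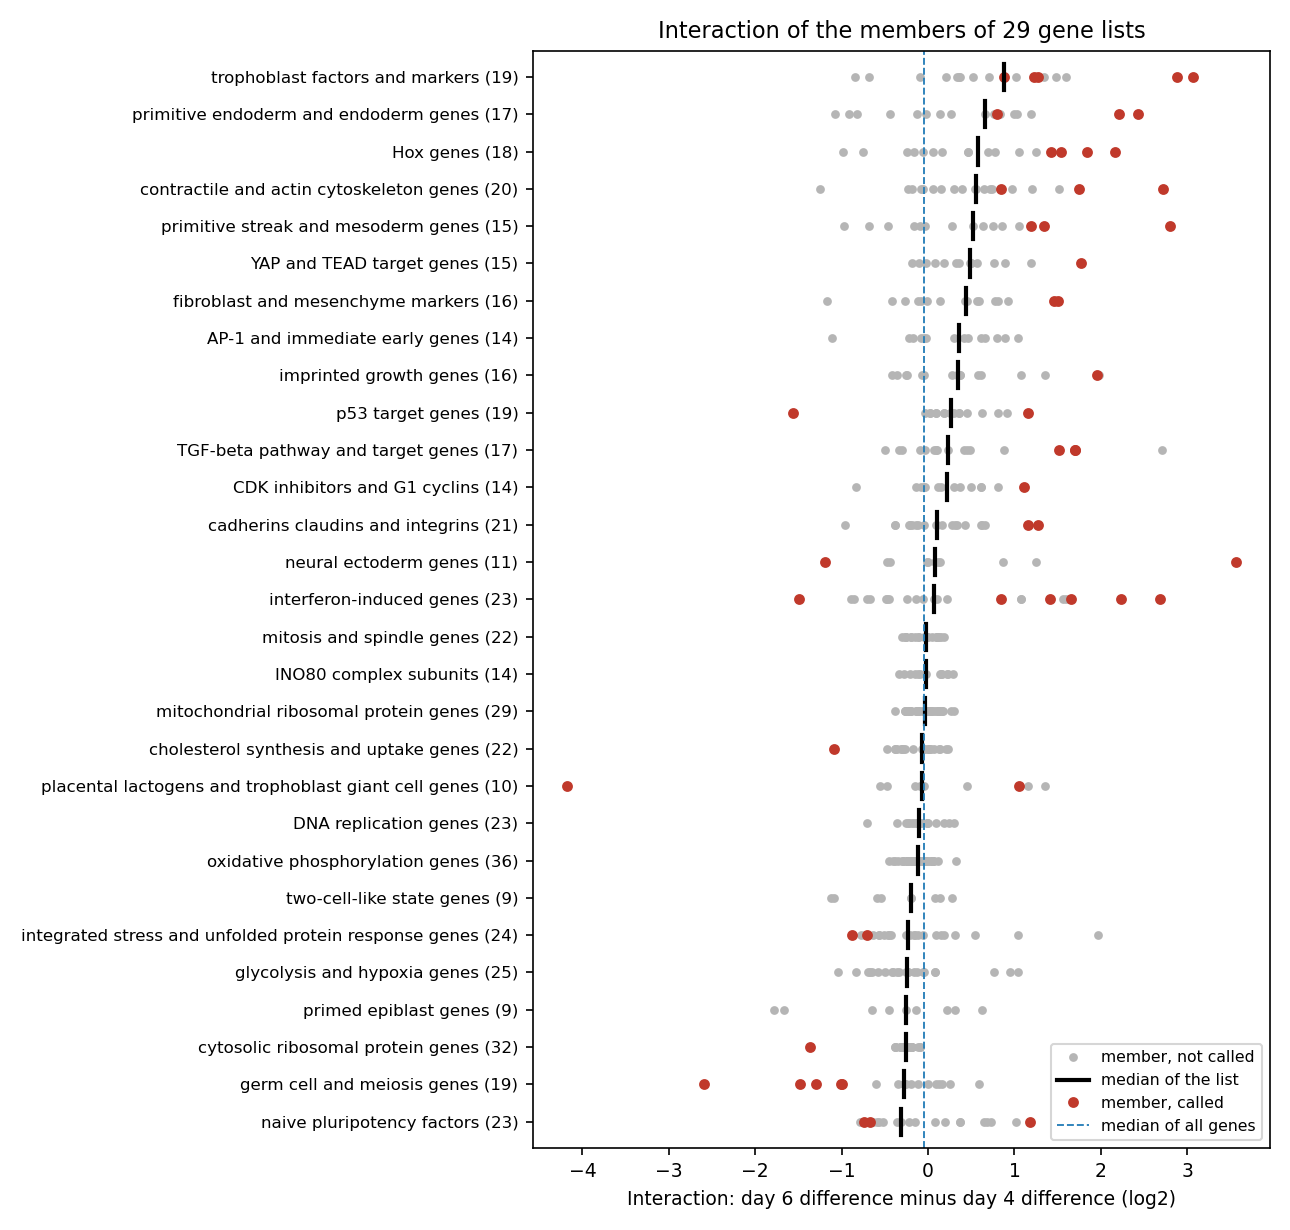
Interaction (log2, horizontal axis) of every measured member of 29 gene lists, sorted by the list's median, with the number of members in brackets. Called members are red, and the black bars, which mark medians, run between 0.87 for trophoblast factors and -0.31 for naive pluripotency factors, against -0.05 for all genes (dashed line).

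Other probes of the called genes gave a check within the same arrays. There were 317 further probes for 240 of the called genes, and 290 of them (91.5%) had the same sign of interaction as the reported probe. Over all probes, 98 of them were called with the same sign and 1 with the opposite sign. Calls of single genes depended on the number of arrays. Of the 89 called genes named here, 45 were called without each of the 8 arrays in turn, and no named gene turned its sign in these fits. Of the same 89, 52 remained called with no filter on dim probes, 76 after averaging the probes of each gene, 77 in the value table, 80 with median scaling and 84 with levels set no lower than the background limit. Of all 715 called genes, 153 were called in each of these 8 fits, among them 46 deepening rises, 20 deepening falls, 21 late-onset rises, 23 late-onset falls, 14 receding rises, 5 receding falls and 24 reversing genes.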

How the data were processed

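RNA of J1 cells was labelled and hybridised to Agilent 1-colour arrays, 12 in all. Scanner intensities were extracted with Agilent Feature Extraction 9.5.3.1, per the file headers, and the processed intensity was used. The deposited value table holds log2 values and was checked to be the log2 of mean spot intensity times 1 factor per array; how the authors chose that factor is unstated, and its column medians lie between 7.22 and 7.47. The labels give the dye as Cy5, while the scanner files hold the green channel.

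From the intensities, log2 levels minus each array's 75th percentile were computed. Of 41174 probes 125 were dropped for outlier marks, and 28654 were kept, each detected above background on both arrays in 1 or more groups. Each gene was represented by its brightest kept probe, giving 19183 genes. Probes were named by accession (22951), symbol (6659) or older symbol (3109) through RefSeq names of GRCm38.p6, or by the name in the file (8455). A model with 1 mean per group over all 12 arrays was fitted with limma 3.58.1 in R 4.3.3 (6 residual degrees of freedom), with Benjamini-Hochberg adjustment over all genes and a threshold of 0.05. Arrays have no read depth, and their number, 2 per group, limits the precision. Folds given as at least are the bright group's mean against, per array of the dim group, the higher of its own signal and the lowest signal well above background.

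Samples sharing a replicate number within a day deviated together with correlations of 0.296 (day 2), 0.117 (day 4) and 0.0831 (day 6), so the numbers were not taken to pair samples. Members, lists and tests were chosen with earlier results of these data known. Named are 12 fixed genes, the 6 largest interactions of each class and direction among informative names above background on all 8 arrays (4 each way for reversing genes), the 6 brightest genes seen or lost on the shIno80 arrays of day 6 alone, and up to 3 called members of each list, some of which are not reported here. Alternatives were other scalings, the value table, normexp background correction with an offset of 50, other filters, the mean of a gene's probes, the 8 arrays alone, slide or replicate number as a block, and leaving out each array. The code was tested on simulated data.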

Additional observations from a re-analysis of the deposited data

Results flagged for a closer look

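Each gene named in the report with an adjusted p below the threshold for the interaction passes the limma test of the difference between the day 6 and day 4 knockdown effects, and its values are not repeated here. In all, 319 genes were higher and 396 lower by that test. For 69 genes the knockdown difference was called on both days in opposite directions. The largest of these toward lower values at day 6 were Elapor1 (-2.19), Scara5 (-2.11), Myo7a (-1.88) and Mzb1 (-1.62), and toward higher values Nkain4 (2.59), Emp1 (2.28), Sema3b (2.23) and Kitl (2.19), all as interactions on the log2 scale. With 2 arrays per group, no group is large enough for a test of outlying samples.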

How the results depend on the processing

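Without each of the 8 arrays in turn, the genes called higher numbered 101 to 210 and lower 98 to 339, against 319 and 396. The late-onset genes then numbered 69 to 172, deepening genes 62 to 143 and receding genes 31 to 134. Without a filter on dim probes there were 124 higher, 126 lower, 88 late-onset, 88 deepening and 44 receding genes. Median scaling gave 235 lower and 108 receding genes, with 55.6% of calls higher. The value table gave 834 higher, 249 lower and 520 deepening genes. Requiring a day 6 difference over 2 times that of day 4 left 161 deepening genes. With the replicate number as a block there were 515 higher, 713 lower, 468 deepening and 316 receding genes, of which 620 calls were shared with the fit without it; the numbers do not pair the samples (correlations of 0.296, 0.117 and 0.0831). Normexp background correction gave 0 calls and 559 genes at an unadjusted p below 0.05, with a median interaction over all genes of 0.15. Up to 17 spots on an array had a local background over 5 times the array's median there. With these backgrounds capped, an alternative chosen after seeing the data, as were the floored levels, 441 genes were higher and 433 lower. Slide as a block changed no count. The cause of the other shifts was not tested.

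Apart from the attachments and plain normexp, 5 interactions of single genes turned sign: Ryr3 to 0.48 (above background on all 8 arrays), 0.19 (capped normexp) and 0.47 (value table), Vwa3b to 0.0261 (value table) and Itgb6 to -0.10 (no filter). Under plain normexp Vwa3b 0.58, Oas2 0.0697, Ryr3 0.73, Timm8a2 0.11 and Hormad1 0.21 turned. By the file attachments, all 5 counts were 0 and 64 interactions of single genes turned sign: Pou5f1 0.52, Sox2 0.0705, Cdx2 -0.23, Hand1 -0.23, T -0.025, Padi4 0.10, Nos3 0.28, Aard 0.24, Lrrc15 0.14, Ddn -0.22, Wnt6 -0.48, Pmp22 -0.23, Wnt10a -0.53, Stra8 0.0437, Serpinf1 0.17, Selenbp1 0.0456, Selenbp2 0.0871, Aldh3b1 0.24, Krt15 -0.49, Prr5l -0.27, Kdr -0.40, Fam13a -0.37, Kcnj8 -0.55, Masp1 -0.29, Hopx -0.37, Car4 0.0585, Megf6 0.0802, Elapor1 0.0892, Scara5 0.0551, Myo7a 0.22, Mzb1 0.15, Nkain4 -0.20, Emp1 -0.27, Sema3b -0.0162, Kitl -0.14, Capn6 -0.69, Lce1i -0.63, Klk6 -0.39, Vwa3b 0.48, Ryr3 0.16, Cabp4 -0.0712, Timm8a2 0.14, Dppa2 0.25, Dppa4 0.0632, Dlx3 -0.30, Krt19 -0.29, Cited1 -0.14, Wnt3 -0.41, Msx2 -0.0602, Dlx2 -0.25, Hoxd10 -0.42, Hoxd9 -0.0903, Col1a1 -0.34, Col1a2 -0.19, Cryab -0.099, Tpm2 -0.10, Ltbp2 -0.45, Ccnd2 -0.0205, Fas -0.23, Mthfd2 0.21, Tgtp1 -0.59, Usp18 -0.42, Ifit2 -0.099, Itgb4 -0.37. Of the 29 list medians, 20 turned sign by the attachments (trophoblast -0.15, mesoderm -0.12, Hox -0.16, naive pluripotency 0.26), 7 in the value table, 3 with median scaling, 2 with probes above background on all 8 arrays, 1 with the mean of probes and 3 under plain normexp (germ cell 0.01, placental lactogen 0.65, and cadherin, claudin and integrin -0.0064). Leaving out 1 array turned up to 2. The 2 arrays per group limit which differences can be called, and genes near background have only a bound.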
